A study of Arabidopsis thaliana with 12 samples.

Results

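The circadian clock core genes were followed across 12 one-colour Agilent microarrays of Arabidopsis thaliana seedlings. The 10 genes were CCA1 (AT2G46830), LHY (AT1G01060), RVE1 (AT5G17300), RVE8 (AT3G09600), PRR9 (AT2G46790), PRR7 (AT5G02810), PRR5 (AT5G24470), TOC1 (AT5G61380), GI (AT1G22770) and LUX (AT3G46640), which the reference gene table lists as PCL1. They were found by their locus identifiers, and they are 10 of the 25663 loci with a probe and of the 20640 loci tested. Each had 1 probe, and all 10 probes were well above background on all 12 arrays.

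All plants were Columbia-0 whole seedlings aged 2 weeks, raised on MS agar with 1% sucrose under 16 h light and 8 h dark at 23 °C, without treatment. The genotypes were 35S:GLK1-SRDX, glk1 glk2 and wild type, with 4 arrays each. In 35S:GLK1-SRDX (GLK1-SRDX below) the constitutive 35S promoter drives the transcription factor GLK1 fused to the SRDX repression domain, and glk1 glk2 is mutant for both GLK genes, which promote chloroplast development. Many seedlings were harvested together for an RNA sample, and the number of independent transgenic lines, the mutant alleles and the time of day of harvest are not given in the sources used here. The labels do not name separate cultures behind the replicates, so the p-values below speak only to the spread among these arrays, some of which may be technical. In whole seedlings, fewer cells of a type and less RNA per cell cannot be told apart.

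The plant clock is a set of transcription factors that repress and activate each other in turn through the day. The MYB-related factors CCA1 and LHY peak around dawn and repress evening genes. PRR9, PRR7 and PRR5 follow in that order through the day and repress CCA1 and LHY. TOC1, GI and the evening complex, of which LUX is the DNA-binding subunit, act around dusk and at night. The level of such a gene in a seedling therefore depends on the hour of harvest.

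The arrays lay on 3 slides. Slides 1 and 2 each held 2 glk1 glk2 and 2 wild-type arrays, while all 4 GLK1-SRDX arrays shared slide 3, so the effects of that slide and of the transgene cannot be told apart. On slides 1 and 2 the wild-type arrays stood at positions 1 and 3 and the glk1 glk2 arrays at positions 2 and 4. Between these 2 genotypes, the effects of position and of genotype therefore cannot be told apart. Between 64.1% and 68.7% of the probes of an array exceeded background clearly, and 0 spots were saturated. Levels are given as log2 intensity relative to the 75th percentile of the array, so they are comparable between arrays for a gene but not between genes. As a check of the genotypes, GLK2 stood between -5.48 and -4.75 in glk1 glk2 and between 1.88 and 2.58 in wild type, and GLK1 between -2.81 and -1.26 in glk1 glk2 and between -0.12 and 0.52 in wild type. The GLK1 probe read 0.78 to 1.11 in GLK1-SRDX, but its difference from wild type did not pass 0.05 (log2 fold change 0.84, limma adjusted p = 0.0662). The GLK2 probe read 2.76 to 3.06 there, also above wild type without passing (0.62, adjusted p = 0.0538). A higher reading in GLK1-SRDX was thus not particular to GLK1. The root marker genes, 18 in all, had median levels relative to the wild-type mean of -1.63 to -1.19 in GLK1-SRDX, of -2.21 to 0.11 in glk1 glk2 and of -0.36 to 0.25 in wild type. The 4 green-shoot markers tested (of 5) had medians between -0.22 and -0.061 in GLK1-SRDX, between -0.32 and 0.34 in glk1 glk2 and between -0.15 and 0.21 in wild type. The root medians differed with genotype and among the glk1 glk2 arrays, and their part in the clock values was not tested.

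Among the dawn genes, CCA1 had levels of -0.76, -0.33, -0.93 and -0.17 on GLK1-SRDX arrays 1 to 4. It had 1.10, 0.17, -0.90 and 1.47 on the glk1 glk2 arrays and 0.34, -0.89, -1.53 and 0.84 on the wild-type arrays, in the same order. Array 4 was highest and array 3 lowest in every genotype, and the groups overlapped. LHY, the close relative of CCA1, had -4.78, -4.19, -4.65 and -3.69 in GLK1-SRDX. LHY had -2.91, -3.63, -4.85 and -2.55 in glk1 glk2, and -3.58, -3.99, -5.46 and -3.01 in wild type. In glk1 glk2 and in wild type LHY ordered the arrays as CCA1 did (4, 1, 2, 3 from high to low), and all 3 genotypes overlapped.

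RVE1, a MYB-related factor of the same family that connects the clock to auxin synthesis, had -0.60, -0.47, -0.76 and -0.22 on GLK1-SRDX arrays 1 to 4. RVE1 had 0.78, 0.44, -0.07 and 1.19 in glk1 glk2, and 0.18, -0.23, -0.16 and 0.81 in wild type. Every GLK1-SRDX array lay below every glk1 glk2 array, while the highest GLK1-SRDX array lay within the wild-type range. RVE8, an activator of evening genes, spanned -3.88 to -3.61 in GLK1-SRDX, -4.58 to -2.52 in glk1 glk2 and -4.42 to -2.75 in wild type. Its GLK1-SRDX arrays thus lay inside the range of both other genotypes.

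Among the day genes, PRR9 had -4.70, -4.26, -5.16 and -3.91 on GLK1-SRDX arrays 1 to 4. PRR9 had -2.91, -3.84, -4.21 and -1.74 in glk1 glk2, and -3.85, -4.34, -5.56 and -2.39 in wild type. It had the widest range of the 10 genes in wild type, 9.0-fold between arrays 4 and 3, and the groups overlapped. PRR7 had 2.69, 2.86, 2.47 and 2.81 in GLK1-SRDX, 3.23, 3.21, 2.73 and 3.24 in glk1 glk2, and 2.84, 2.61, 2.47 and 2.91 in wild type. Its glk1 glk2 arrays 1, 2 and 4 lay above all arrays of the other genotypes, and array 3 did not. PRR5 had 2.61, 2.66, 2.55 and 2.64 in GLK1-SRDX, 3.34, 3.21, 2.89 and 3.02 in glk1 glk2, and 2.84, 2.49, 2.61 and 2.40 in wild type. Every glk1 glk2 array of PRR5 lay above every array of the other 2 genotypes, and in glk1 glk2 and wild type it did not follow the array order of PRR9 and PRR7.

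Among the evening genes, TOC1, a pseudo-response regulator that represses CCA1 and LHY, had 1.39, 1.36, 1.40 and 1.34 on GLK1-SRDX arrays 1 to 4. TOC1 had 1.34, 1.93, 1.91 and 1.17 in glk1 glk2, and 1.24, 1.60, 1.68 and 1.11 in wild type. Arrays 2 and 3 were high and arrays 1 and 4 low in glk1 glk2 and in wild type, the reverse of CCA1. LUX had 3.25, 2.85, 2.97 and 2.74 in GLK1-SRDX, 2.87, 3.31, 3.07 and 2.11 in glk1 glk2, and 2.93, 3.11, 3.19 and 2.45 in wild type, with array 4 lowest in each genotype. GI, a large protein that links the clock to light signalling and flowering, had 1.46, 1.33, 1.47 and 1.24 in GLK1-SRDX, 1.21, 1.76, 1.22 and 1.36 in glk1 glk2, and 1.24, 1.52, 1.17 and 1.46 in wild type. In glk1 glk2 and wild type GI was highest on array 2 and next highest on array 4, unlike TOC1 and LUX. For all 3 evening genes the genotypes overlapped.

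**Figure D1:**
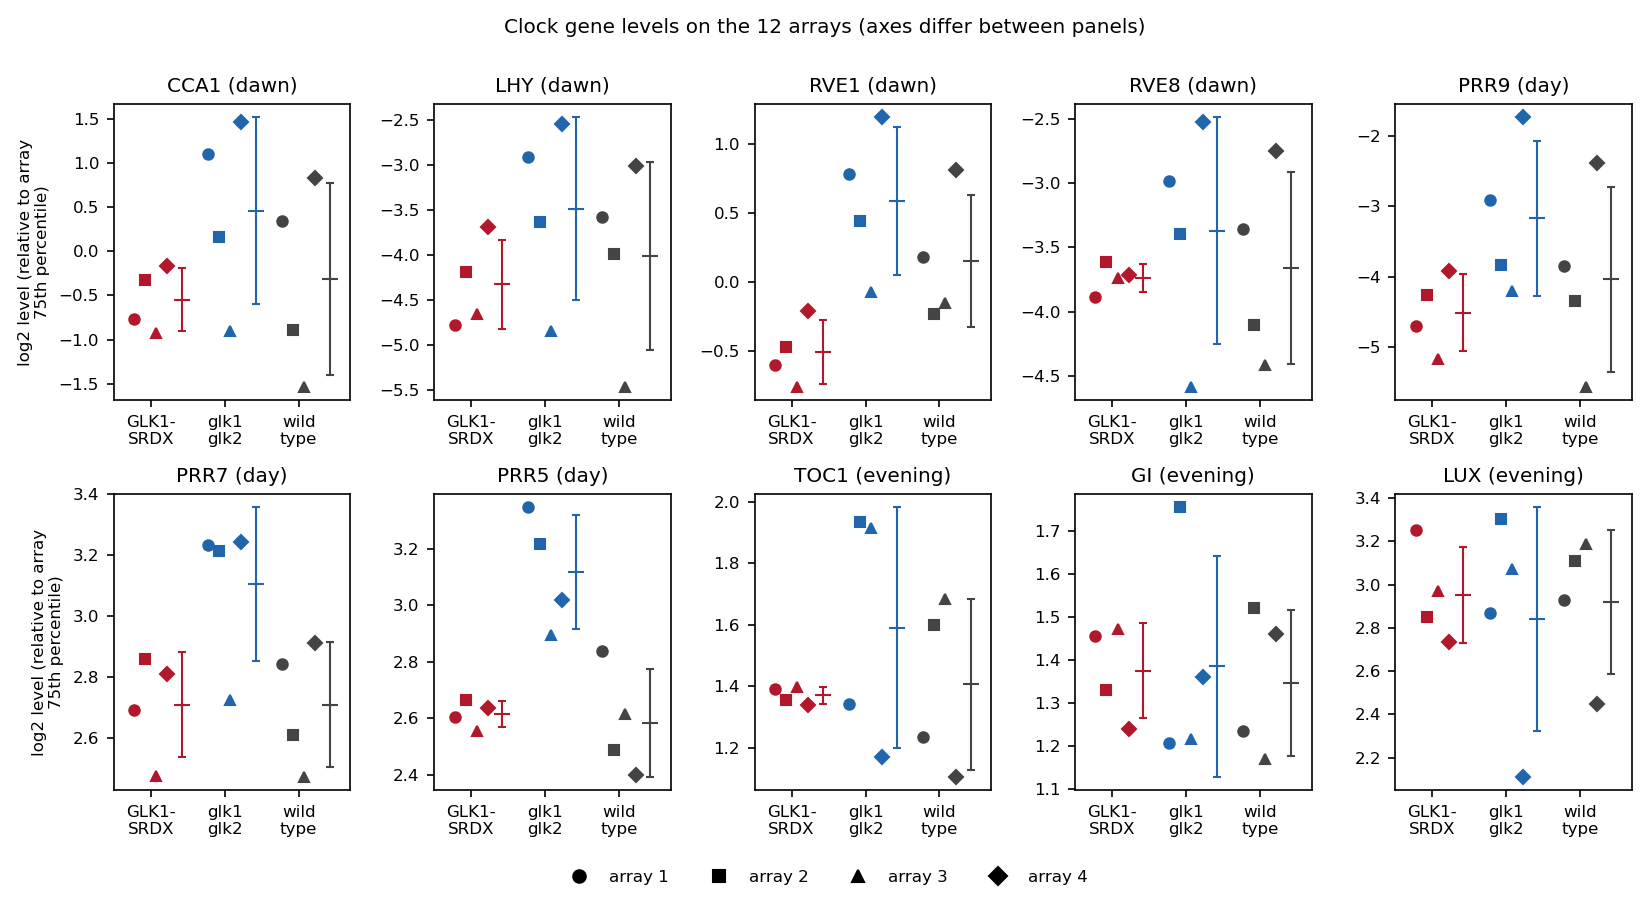
Levels of the 10 clock genes (vertical axis, log2 intensity relative to the array's 75th percentile, with its own scale in each panel) in GLK1-SRDX, glk1 glk2 and wild type. Symbols mark array numbers 1 to 4 and bars the mean ± SD over 4 arrays. PRR5 lies higher on all 4 glk1 glk2 arrays than on any other array, and TOC1 spans 1.34 to 1.40 in GLK1-SRDX against 1.11 to 1.68 in wild type.

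The spread between arrays of a genotype lay in the top 10% of loci for LHY and PRR9 in every genotype, and for CCA1 and RVE8 in glk1 glk2 and wild type only. The SD of CCA1 over 4 arrays was 0.36 in GLK1-SRDX, 1.06 in glk1 glk2 and 1.09 in wild type, the last above that of 98.7% of tested loci. The SD of PRR9 was 0.54 in GLK1-SRDX, 1.10 in glk1 glk2 and 1.31 in wild type, above that of 92.9%, 95.5% and 99.3% of tested loci in those genotypes. The SD of LHY was 0.50 in GLK1-SRDX, 1.01 in glk1 glk2 and 1.05 in wild type. RVE8 had an SD of 0.11 in GLK1-SRDX, above that of 45.4% of loci, but of 0.88 in glk1 glk2 and 0.75 in wild type. The median SD of the 10 genes was 0.20 in GLK1-SRDX, 0.53 in glk1 glk2 and 0.40 in wild type, against 0.12, 0.25 and 0.19 for all tested loci. Of the 10 genes, 2 in GLK1-SRDX, 4 in glk1 glk2 and 4 in wild type lay in the top 10% of loci by SD. All 10 had a narrower range over the GLK1-SRDX arrays than over the glk1 glk2 or the wild-type arrays. The share of all tested loci with such a narrower range was not counted, so this count has no background beside it. The median SD of all tested loci was also smallest in GLK1-SRDX, whose arrays shared a slide.

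This spread followed the array number in glk1 glk2 and wild type, with the dawn genes and the evening genes TOC1 and LUX in opposite directions. CCA1, LHY, RVE1 and RVE8 were highest on array 4 in both genotypes, and TOC1 and LUX were lowest there. Relative to the wild-type mean of each gene, the 4 dawn genes averaged 0.95, 0.35, -0.64 and 1.35 on glk1 glk2 arrays 1 to 4, and 0.35, -0.35, -0.93 and 0.93 on wild-type arrays 1 to 4. The 3 evening genes averaged -0.083, 0.44, 0.18 and -0.34 on the glk1 glk2 arrays and -0.090, 0.19, 0.12 and -0.22 on the wild-type arrays. Arrays 1 and 4 were thus high for the dawn genes and low for the evening mean, while GI by itself was low on array 1 and not on array 4. Arrays 1 and 2 shared slide 1 and arrays 3 and 4 shared slide 2, so both states occurred on each slide. Same-numbered arrays of these genotypes stood at adjacent positions of a slide, so array number and place on the slides cannot be told apart. On GLK1-SRDX arrays 1 to 4 the dawn genes averaged -0.55, -0.19, -0.56 and 0.010 and the evening genes 0.14, -0.044, 0.056 and -0.12. By these means dawn genes were highest and evening genes lowest on array 4, but array 1 was low for dawn genes. RVE8 by itself was highest on GLK1-SRDX array 2.

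**Figure D2:**
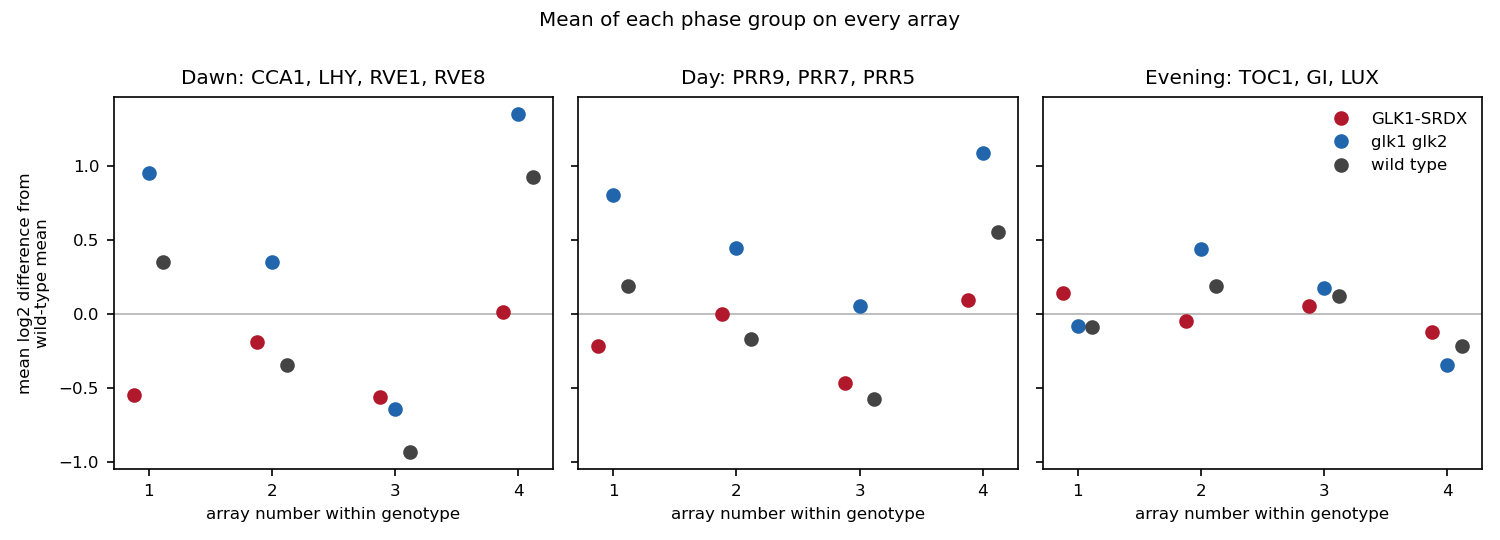
Mean log2 difference from the wild-type mean (vertical axis) of the dawn, day and evening genes on arrays 1 to 4 (horizontal axis) of each genotype; each point is 1 array. The glk1 glk2 and wild-type points move together over the array numbers for dawn genes, which run between -0.93 and 1.35 in those genotypes.

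Array number was then tested as a term beside genotype in the glk1 glk2 and wild-type arrays (limma's moderated F, chosen after the values were seen). It passed for 7 of the 10 clock genes (CCA1, LHY, RVE1, RVE8, PRR9, TOC1 and LUX), against 16.4% of all tested loci. The adjusted p was 0.0123 for LHY, 0.0131 for CCA1, 0.0179 for PRR9 and 0.0314 for TOC1. For PRR7 it was 0.0863, for GI 0.0902 and for PRR5 0.187. In the same test on GLK1-SRDX with wild type, and on GLK1-SRDX with glk1 glk2, 0 clock genes passed, where 0 of all tested loci did.

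Other clock genes, 27 of a list of 27 tested, were read in the same way, and 12 passed for array number in glk1 glk2 and wild type, against 16.4% of all tested loci. LNK1, whose product is a co-activator that works with RVE8, had 1.06, -0.17, -1.06 and 1.85 on glk1 glk2 arrays 1 to 4 and 0.69, -0.56, -1.09 and 1.62 on wild-type arrays 1 to 4 (adjusted p = 0.0122, limma). COR27, a cold- and light-regulated repressor of clock genes, had 1.53, 2.85, 2.88 and 0.11 in glk1 glk2 and 1.5, 2.41, 2.77 and 0.05 in wild type (adjusted p = 0.0123). LNK1 was high where CCA1 was high, and COR27 was high where TOC1 was high. RVE2, a MYB-related factor, passed too (adjusted p = 0.0291) but ran opposite to CCA1. It had -0.66, 0.0044, 0.99 and -1.25 on glk1 glk2 arrays 1 to 4, and -0.21, 0.67, 0.88 and -0.57 on wild-type arrays 1 to 4. In GLK1-SRDX, LNK1 spanned 0.14 to 0.52 and COR27 spanned 2.23 to 2.77.

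Without the array number in the fit, glk1 glk2 differed from wild type in 1 clock gene. PRR5 rose 1.45-fold (log2 fold change 0.53 ± 0.12 SE, n = 4 each, limma adjusted p = 0.0341), and its groups did not overlap. Of all tested loci 3.30% passed, 2.19% as higher, and 9.84% had groups that did not overlap. CCA1 (0.77 ± 0.58 SE) and PRR9 (0.86 ± 0.67 SE) had larger fitted differences than PRR5 and did not pass (adjusted p = 0.493 and 0.506). The SE of this fit draws on all 12 arrays, and the PRR5 SD was 0.047 in GLK1-SRDX, 0.20 in glk1 glk2 and 0.19 in wild type. Fitted on the glk1 glk2 and wild-type arrays alone, PRR5 did not pass. With each of the 12 arrays left out in turn, the PRR5 call stood in 2 fits, those without glk1 glk2 replicate 3 or wild type replicate 1, and was lost without each of the other 10 arrays (adjusted p between 0.0129 and 0.0999 over the 12 fits). Within slide 1 the PRR5 difference was 0.62 and within slide 2 it was 0.45, and it passed in neither (adjusted p = 0.137 and 1.00).

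With the array number as a block, 4 clock genes rose in glk1 glk2 over wild type, against 6.88% of all tested loci called and 4.60% called higher. This fit used the glk1 glk2 and wild-type arrays alone, whereas the fit without the block used all 12 arrays. It treats same-numbered arrays as pairs, a pairing that the labels do not state. Without the block, a fit of the glk1 glk2 and wild-type arrays alone called no clock gene. CCA1 rose by 0.77 ± 0.093 SE (adjusted p = 0.0312, limma), LHY by 0.53 ± 0.073 (adjusted p = 0.0363), PRR9 by 0.86 ± 0.16 (adjusted p = 0.0491) and PRR5 by 0.53 ± 0.089 (adjusted p = 0.0430). Between same-numbered arrays CCA1 was higher in glk1 glk2 in 4 of 4 pairs, by 0.63 to 1.06. LHY was higher in 4 of 4 pairs, by 0.36 to 0.67, and PRR9 in 4 of 4, by 0.50 to 1.35. RVE1, PRR7 and TOC1 were also higher in 4 of 4 pairs and did not pass (adjusted p = 0.0901, 0.0534 and 0.151). RVE8 was higher in 3 of 4 pairs, GI in 2 and LUX in 1. The share of all tested loci higher in 4 of 4 pairs was not counted, so these pair counts have no background beside them.

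With both arrays of a number left out, the count of blocked calls moved for all loci and for the clock genes alike. Without the arrays numbered 3 the block fit called 32.1% of all tested loci and 6 clock genes (RVE1 and PRR7 added). Without those numbered 1, 2 or 4 it called 0.0291%, 0.0921% and 0.0921% of loci and 0 clock genes. The fitted CCA1 difference stayed between 0.68 and 0.82 in those fits. LHY and PRR9 had the lowest intensities, from 45.4 and 42.5 units upward. After a normexp background correction that left out spots of high local background, the blocked fit called only CCA1 of the 10 (0.74, adjusted p = 0.0438), with LHY at 0.20 (adjusted p = 0.517), PRR9 at 0.45 (adjusted p = 0.132) and PRR5 at 0.53 (adjusted p = 0.0572). The root marker medians of glk1 glk2 arrays 1 to 4 were -0.67, -1.24, 0.11 and -2.21 relative to the wild-type mean, and their part in these differences was not tested.

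**Figure D3:**
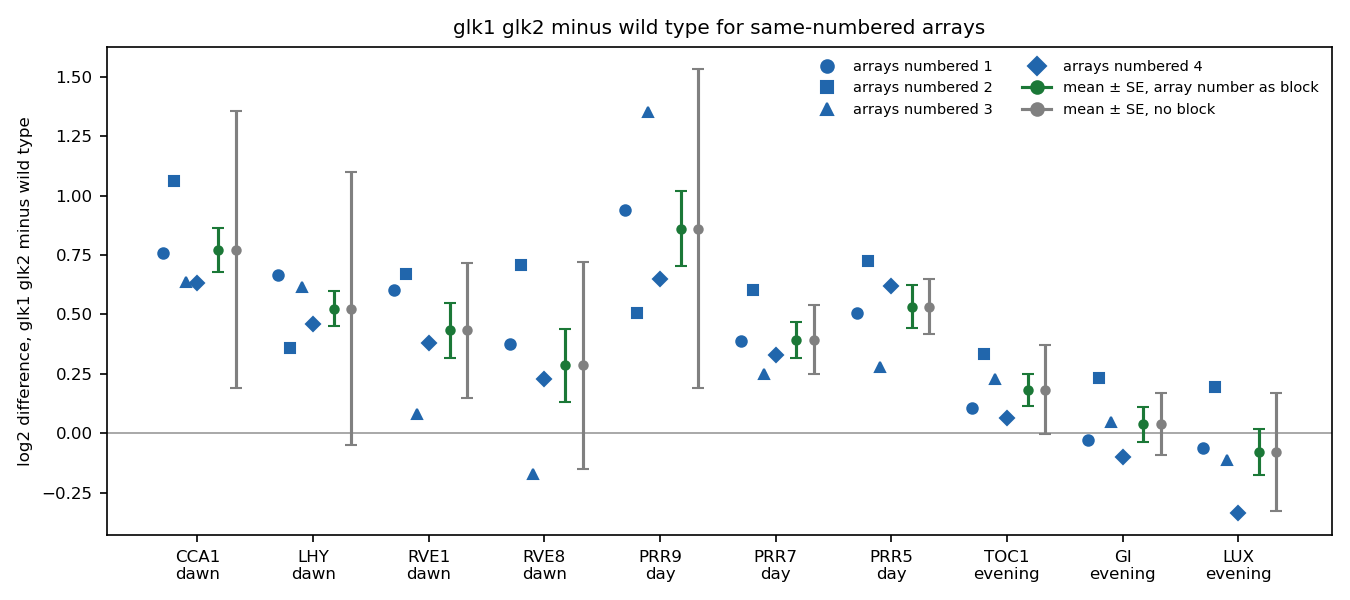
Difference in log2 level between glk1 glk2 and wild type (vertical axis) for each clock gene, for arrays of the same number (blue symbols), with the mean ± SE of the fit with array number as block (green) and without it (grey). The CCA1 pairs lie between 0.63 and 1.06. The SE of the CCA1 mean is 0.093 with the block, on the glk1 glk2 and wild-type arrays alone, and 0.58 without it, on all 12 arrays.

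By phase, the fitted glk1 glk2 differences from wild type averaged 0.50 for the dawn genes, 0.60 for the day genes and 0.048 for the evening genes. The median over the 10 genes was 0.41, against 0.0011 over all tested loci, and 9 of 10 were positive, all but LUX. GI became negative with quantile normalization and LUX positive with scaling to the array median, which moved the median of all loci by 0.20. LHY (-0.45), RVE8 (-0.45) and PRR9 (-0.20) became negative with a normexp background correction that kept the spots of high local background. The dawn mean exceeded the evening mean by 0.46. With 1 array left out, that excess ran from 0.042 to 0.88. Between same-numbered arrays this excess was 0.60, 0.44, 0.24 and 0.55 for numbers 1 to 4, positive in 4 of 4 pairs with an SD of 0.16. On single arrays, the dawn mean minus the evening mean had an SD within genotypes of 0.89, pooled over the 3 genotypes. That is the spread of single arrays and not of differences between pairs.

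In GLK1-SRDX against wild type no clock gene passed the threshold. Of the 10, 0 passed in limma's fit, against 14.3% of all tested loci, and RVE1 had the smallest p of them. RVE1 averaged -0.51 in GLK1-SRDX and 0.15 in wild type (log2 fold change -0.66 ± 0.28 SE, adjusted p = 0.142). CCA1 differed by -0.23 ± 0.58, LHY by -0.31 ± 0.58 and PRR9 by -0.47 ± 0.67. With an SE of 0.58 for CCA1 in this fit, the difference of 0.77 in glk1 glk2 did not pass either. PRR7, PRR5, TOC1, GI and LUX had fitted differences between -0.036 and 0.034, with SE of 0.12 to 0.25. The median over the 10 genes was -0.058, against 0.0080 over all tested loci, and in 0 of 10 did the groups not overlap, against 28.0% of loci.

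Between the lines, RVE1 and PRR5 were lower in GLK1-SRDX than in glk1 glk2. RVE1 averaged -0.51 ± 0.23 in GLK1-SRDX and 0.58 ± 0.54 in glk1 glk2 (SD, n = 4 each), 2.14-fold lower (log2 fold change -1.10 ± 0.28 SE, limma adjusted p = 0.0367). PRR5 averaged 2.62 ± 0.047 in GLK1-SRDX and 3.12 ± 0.20 in glk1 glk2, 1.42-fold lower (-0.50 ± 0.12 SE, adjusted p = 0.0220). For both genes every GLK1-SRDX array lay below every glk1 glk2 array. Of all tested loci 9.27% passed, 3.72% as lower, and 17.3% had groups that did not overlap. CCA1 (-1.01 ± 0.58), LHY (-0.84 ± 0.58) and PRR9 (-1.33 ± 0.67) did not pass (adjusted p = 0.333, 0.421 and 0.254). This comparison shares its arrays with the 2 comparisons against wild type and is no independent evidence.

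The calls between the lines depended on single arrays and on scaling. Of the 12 fits that left out 1 array, RVE1 passed in 5 and PRR5 in 7. PRR5 was lost without GLK1-SRDX replicates 1, 2 or 3 or glk1 glk2 replicates 1 or 2. RVE1 was lost without any of these, and also without glk1 glk2 replicate 4 or wild type replicate 1. Both missed the threshold with scaling to the array median (adjusted p = 0.0741 and 0.0784).

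**Figure D4:**
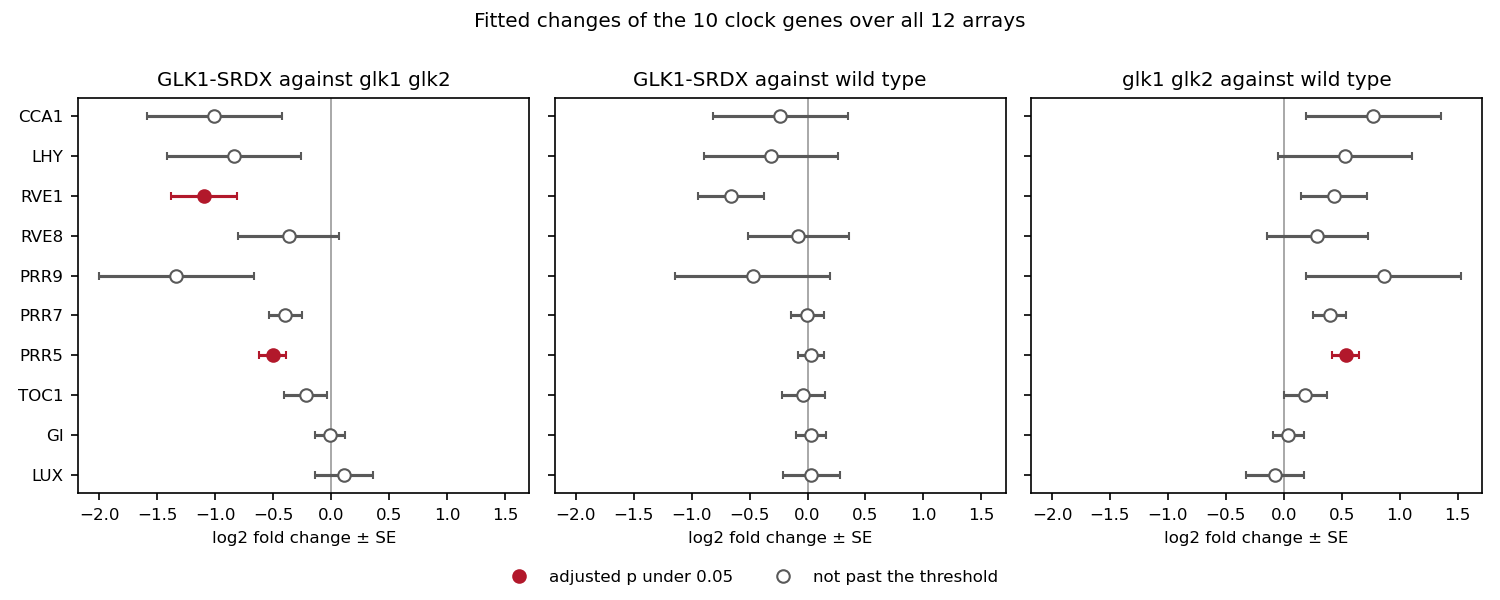
Fitted log2 fold change ± SE (horizontal axis) of the 10 clock genes in GLK1-SRDX against glk1 glk2, GLK1-SRDX against wild type and glk1 glk2 against wild type, without array number in the fit. Filled red points passed the threshold of 0.05: RVE1 and PRR5 at left, none in the middle and PRR5 at right.

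Of the 27 other clock genes 1, PRMT5, passed in glk1 glk2 against wild type, close to the share of all tested loci (3.30%). PRMT5, a protein arginine methyltransferase that acts on the splicing of clock transcripts, had 0.97, 1.09, 1.27 and 1.00 in glk1 glk2 and 0.37, 0.34, 0.70 and 0.47 in wild type. It rose by 0.61 ± 0.10 SE (adjusted p = 0.0119, limma), its groups did not overlap, and with array number as block LNK2 (0.44), a relative of LNK1, and FIO1 (0.34), which sets the clock period, passed too, as higher (adjusted p = 0.0446 and 0.0496), where 6.88% of all loci passed. The median of the 27 was 0.16, against 0.0011 over all tested loci, with 20 positive. In GLK1-SRDX against wild type 0 of the 27 passed, against 14.3% of all loci, and the smallest p values were those of CHE, a TCP factor that represses CCA1 (-0.30, adjusted p = 0.140), and of RVE2, a MYB-related factor (-0.98, adjusted p = 0.170). PRMT5 had 0.53, 0.67, 0.74 and 0.50 in GLK1-SRDX, and was lower there than in glk1 glk2 (-0.47 ± 0.10 SE, adjusted p = 0.0169), as the 1 of 27 that passed where 9.27% of all loci did.

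Of 13 clock output genes, 1 fell in glk1 glk2 and 3 fell in GLK1-SRDX relative to wild type, and 0 rose in either. Of all tested loci 1.10% fell in glk1 glk2 and 6.40% fell in GLK1-SRDX. COL1, a CONSTANS-like gene, had -0.14, -0.04, -0.42 and 0.11 in GLK1-SRDX, -0.39, -0.40, -0.67 and -0.24 in glk1 glk2 and 0.95, 0.38, 0.10 and 0.86 in wild type. COL1 fell by 1.00 in glk1 glk2 (SE 0.19, limma adjusted p = 0.0200) and by 0.70 in GLK1-SRDX (adjusted p = 0.0357), where the arrays overlapped those of wild type. CDF5 and CDF2 encode DOF factors of the family that represses CONSTANS. CDF5 had -3.06, -2.60, -3.47 and -2.36 in GLK1-SRDX, -1.85, -1.39, -2.38 and -2.15 in glk1 glk2 and -1.05, -1.23, -1.31 and -1.41 in wild type. It was 3.08-fold lower in GLK1-SRDX than in wild type (adjusted p = 0.00255, limma), all 4 arrays below those of wild type. CDF2 was 1.81-fold lower in GLK1-SRDX than in wild type (adjusted p = 0.00285) and 1.52-fold lower than in glk1 glk2 (adjusted p = 0.0210). CDF5 was 1.91-fold lower in GLK1-SRDX than in glk1 glk2 (adjusted p = 0.0449), where the groups overlapped.

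The loci most like 3 of the members were found by the root mean square difference between log2 profiles, each centred on its own mean over the 12 arrays. For CCA1, whose own profile deviated by 0.89, these were SIGE (0.24), LHY (0.25), SPS2 (0.29), JAC1 (0.29) and NAC3 (0.31). LHY in turn had CCA1 as its closest locus. For PRR5, with a profile deviating by 0.28, they were AT2G04795, AT5G10460, BZO2H3, HB2 and AT4G39880, at 0.12 to 0.13. For TOC1, with a profile deviating by 0.26, they were AT1G05960, AT1G48430, AT2G43370, RER1 and RCY1, at 0.076 to 0.096. Of the 5 loci closest to PRR9, 1 was a clock gene of the lists (LNK3), and of those closest to RVE1, RVE8, PRR7, GI and LUX 0 were.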

How the data were processed

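The deposited scanner files hold background-subtracted spot intensity on a linear scale, per the file headers. The submitters' processing notes name Agilent Feature Extraction 9.1.3.1 as the software. A deposited series table, also an intensity, equals it divided by a constant per genotype (974, 1077 and 892 for wild type, glk1 glk2 and GLK1-SRDX).

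Control and outlier-marked spots (6 to 86 per array) were left out and spots of a probe averaged. Log2 intensity was set relative to each array's 75th percentile (1522 to 2480 units). A probe well above background on at least 4 arrays, and unmarked on at least 3 of every group, was kept, and the brightest stood for its locus. The test between genotypes was that of limma 3.58.1 (R 4.3.3, 12 arrays, 9 residual degrees of freedom, two-sided, Benjamini-Hochberg over all loci, threshold 0.05), checked on simulated data. Fits with array number as a block used only the arrays of the genotypes compared. The number of arrays limits the precision.

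Replicate numbers come from the sample titles. Deviations of same-numbered glk1 glk2 and wild-type arrays correlated at 0.32, 0.38, 0.46 and 0.76 across loci, so these numbers were used as a block. The labels do not describe equal numbers as a shared day, culture or batch, and the correlations come from these same data. The fit without the block was the main one and the block an alternative.

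All members were named, with passing genes of the other clock list (up to 6, otherwise the 2 of smallest p) and of the output list. LNK1, COR27, RVE2 (for array number) and the output genes of the closing observations were chosen after their array values were seen. Members and lists were chosen with earlier results of these data known. Names came from the RefSeq gene table of TAIR10.1. Promoter and protein sequences were not used here.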

Additional observations from a re-analysis of the deposited data

Results flagged for a closer look

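PRR7 in glk1 glk2 replicate 3 had a level of 2.73, far below the 3.21 to 3.24 of the other 3 arrays (Dixon ratio 0.943). This was 1 of 30 gene and genotype groups examined, and chance marks about 1 in 20.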

How the results depend on the processing

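Counts below are of loci, then clock genes, past the threshold. For glk1 glk2 against wild type (681 loci, 453 higher; 1 clock gene), scaling to the array median gave 1944 loci (1779 higher), normexp on median signals (mean signals not being used here) 146 and 0, the series values 136 (4 higher) and 0, no filter on dim probes 0 clock genes (PRR5 adjusted p = 0.0517), a fit of the 2 groups alone 115 and 0, slide as a fixed block 64 and 0, slide 1 alone 20 and 0, and slide 2 alone 0 and 0. The replicate block gave 1420 and 4, with median scaling 1494 and 5, with quantile normalization 1295 and 4, and with normexp, high-background spots left out, 295 loci. That normexp without the block gave 432; it was added after the plain normexp was seen to be shifted in wild type replicate 3, where 9 spots had a local background over 1000. Leaving out 1 array gave 252 to 3222 and 0 to 2, and leaving out number 1, 2, 3 or 4 under the block 6, 19, 6631 and 19 loci and 0, 0, 6 and 0 clock genes. For GLK1-SRDX against wild type (2948 loci, 1628 higher), median scaling gave 4712 (3763 higher), normexp 830, the series values 909, and single arrays left out 1502 to 4420. The numbers did not pair these arrays (same-number correlations -0.064, -0.20, 0.26 and 0.0088), and the block gave 2473 loci and 0 clock genes. For GLK1-SRDX against glk1 glk2 (1913 and 2), median scaling gave 1205 and 0, normexp 288 and 0, the 2 groups alone 1262 and 1 (PRR5), the block 715 and 1 (RVE1; correlations -0.0079, 0.20, 0.58 and -0.096), the series values 1402 higher of 1550 and 0 clock genes, and single arrays left out 996 to 2676 and 0 to 3. The cause of these changes was not tested.

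Signs of single clock genes turned in 58 of 790 recomputed values, none past the threshold in its fit. In glk1 glk2 against wild type, LUX turned with median scaling (0.12, also with the block), normexp (0.043) and slide 1 alone (0.067), and GI with quantile normalization (-0.0081, also with the block), the series table (-0.15) and slide 2 alone (-0.025). Normexp turned LHY (-0.45), RVE8 (-0.45) and PRR9 (-0.20), and the series table TOC1 (-0.0028). In GLK1-SRDX against wild type, median scaling turned RVE8 (0.11), PRR7 (0.19) and TOC1 (0.15), quantile normalization RVE8 (0.083), PRR5 (-0.0023), GI (-0.0038) and LUX (-0.021), normexp PRR5 (-0.0065) and TOC1 (0.13), the series table RVE8 (0.024), PRR7 (0.10) and TOC1 (0.069), and normexp without high-background spots PRR5 (-0.096), TOC1 (0.065) and GI (-0.010). Between the lines, GI turned with quantile normalization (0.0043) and the series table (0.28), and TOC1 with the series table (0.072). With 1 array left out, GI ran from -0.084 to 0.098 and LUX from -0.24 to 0.16 in glk1 glk2 against wild type, and under the block, with a number left out, from -0.026 to 0.085 and from -0.17 to 0.0068. In GLK1-SRDX against wild type CCA1 ran from -0.64 to 0.15, LHY from -0.80 to 0.020, RVE8 from -0.33 to 0.22, PRR9 from -0.98 to 0.075, PRR7 from -0.079 to 0.078, PRR5 from -0.032 to 0.11, TOC1 from -0.14 to 0.057, GI from -0.030 to 0.087 and LUX from -0.12 to 0.12. Between the lines GI ran from -0.069 to 0.11 and LUX from -0.13 to 0.27.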

Other observations

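Clock output genes also moved with array number in glk1 glk2 and wild type, where 6 of 13 passed the moderated F of limma, against 16.4% of all tested loci. CO, the CONSTANS gene of photoperiodic flowering, had -4.95, -3.95, -4.59 and -6.04 on glk1 glk2 arrays 1 to 4 and -5.70, -4.33, -4.07 and -6.26 on wild-type arrays 1 to 4 (adjusted p = 0.0401). GRP7, an RNA-binding protein that feeds back on its own transcript, had 3.15, 4.07, 3.91 and 3.11 in glk1 glk2 and 3.11, 4.07, 4.19 and 3.01 in wild type (adjusted p = 0.0207). Both were high on arrays 2 and 3, as TOC1 was. BBX19, a B-box protein that delays flowering, had -2.56, -3.25, -3.20 and -1.58 in glk1 glk2 and -2.98, -3.22, -3.20 and -1.79 in wild type (adjusted p = 0.0186), high on array 4 as CCA1 was. In GLK1-SRDX, GRP7 spanned 3.94 to 4.26 and BBX19 spanned -3.28 to -3.09, and CO had -5.47, -6.01, -5.96 and -4.84, highest on array 4.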
